A study of Mus musculus with 6 samples.

Results

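The 37 genes described here encode the enzymes, scaffolds and brakes of the PI3K-AKT-mTOR pathway. They were taken as a list of gene symbols by a rule that holds no measured value, though earlier results of these data were known when the list was drawn up, and 37 of 37 were found among the 24982 symbols of the count table. That table writes symbols in capitals (PHLPP1, TSC1, PDPK1, EIF4EBP1), and the mouse spelling is used below. PI3K, recruited to activated antigen and cytokine receptors, makes a membrane lipid that brings the kinases PDK1 and AKT together. AKT releases the small GTPase RHEB from its inhibitor TSC, and RHEB on the lysosome switches on mTOR complex 1, which amino acids reach through the RAG GTPases and their Ragulator anchor. Regulatory T (Treg) cells are known for holding PI3K-AKT signalling low while still needing mTOR complex 1 for their activated state.

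RNA came from natural Treg cells of B6.129 mice aged 8 to 10 weeks, sorted from spleen as CD4+CD25+CD127lo. The groups were wild type (WT) and Srsf1-flox/flox dLck.Cre (KO), in which Cre from the distal Lck promoter is meant to delete the splicing factor gene Srsf1 in T cells. Cells of both groups received antibodies to CD3 (2 µg/ml) and CD28 (2 µg/ml) plus recombinant interleukin-2 (10 ng/ml) for 72 h. Each group had 3 libraries, and they were taken as separate animals because the design text speaks of 3 mice for each genotype. One label field calls the cells effector CD4 T cells, against the titles and the sorting text.

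Depth ran from 23263741 to 27562046 counts in WT and from 10183626 to 20373649 in KO, with no overlap. The library of KO replicate 1 was unlike the rest, with correlations across genes of 0.900 to 0.927 to the other libraries, which among themselves had 0.945 to 0.989. The targeted gene, Srsf1, was lower in KO on average, but the groups overlapped (CPM are counts scaled to a common library size with TMM factors). The library labelled WT replicate 3 had 755 CPM of Srsf1, below KO replicates 2 (811 CPM) and 3 (786 CPM). WT replicates 1 (1213 CPM) and 2 (1230 CPM) lay above each KO library, and KO replicate 1 was the lowest library (438 CPM). The log2 fold change of Srsf1 (KO minus WT) was -0.65 (SE 0.32), edgeR adjusted p = 0.682. Of 10 Treg and T cell markers, 8 had a fold change above 0 (51.6% of all genes did), and 0 had an edgeR adjusted p under 0.05. Foxp3 had 104 to 160 CPM in WT and 356 to 464 CPM in KO (edgeR adjusted p = 0.197). The 2 below 0 were Il2ra and Ctla4, with log2 fold changes of -0.09 and -0.79. Without KO replicate 1, Il2ra stood at +0.14, Cd3d at -0.21 and Tnfrsf18 at -0.19, each with its sign changed. The other markers of that list kept their sign. Summed CD8 T cell markers (4 genes) ran from 235 to 334 CPM in WT and from 97.1 to 128 CPM in KO. Of these, Cd8a had 118 to 176 CPM in WT and 26.6 to 46.9 CPM in KO (edgeR adjusted p = 0.197). Cd8b1 had 75.2 to 93.2 CPM in WT and 12.3 to 14.1 CPM in KO. It was 1 of the 2 genes called among all genes tested (edgeR adjusted p = 0.0166). Klrk1 had 28.6 to 45.5 CPM in WT and 17.1 to 43.9 CPM in KO, and Eomes 12.3 to 19.7 CPM and 19.6 to 36.97 CPM. In bulk RNA, fewer cells of a type and less RNA per cell cannot be told apart, and the part of other cells in the values below was not tested. Summed markers of macrophages and dendritic cells ran from 2.08 to 6.45 CPM in WT and from 10.7 to 16.5 CPM in KO. Cd68 and Fcer1g made up most of that sum in each library. Cd68 had 1.40 to 3.98 CPM in WT and 4.83 to 8.13 CPM in KO, and Fcer1g 0.497 to 1.65 CPM and 5.05 to 7.21 CPM. The other genes of that list had at most 0.868 CPM (Itgax in KO replicate 1), with Csf1r, Lyz2 and C1qa listed at 0 in each library. Summed B cell markers ran from 6.35 to 22.3 CPM in WT and from 6.33 to 9.78 CPM in KO. Summed NK cell markers, with Klra8 listed at 0, ran from 15.9 to 21.4 CPM in WT and from 24.7 to 50.5 CPM in KO, and the same Eomes counts made up most of that sum in each library.

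No member of the pathway passed the threshold between KO and WT. The nearest was Phlpp1, which encodes a phosphatase that switches AKT off, with the WT libraries gave 26.1, 24.1 and 22.2 CPM and the KO libraries 48.9, 36.7 and 37.8 CPM. Each KO library lay above each WT library, and the log2 fold change (KO minus WT) was +0.77 (SE 0.24), edgeR adjusted p = 0.529 (Benjamini-Hochberg over 11772 genes). Over the 37 members, 0 were called at an adjusted p under 0.05 by edgeR (0.017% of all genes tested), by DESeq2 (0.986% of all genes) or by limma-voom. Phlpp1 alone, 1 of 37, had an unadjusted p under 0.05, with each of these tools. With edgeR, 7.51% of all genes did, 4.75% higher and 2.76% lower in KO. Log2 fold changes of the members ran from -0.52 to +0.82, with a median of +0.11 against +0.02 for all genes tested, and their standard errors from 0.21 to 0.61.

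The 3 WT and the 3 KO values did not overlap for 6 members, which is 16.2% of 37 against 15.7% of all genes tested, a share near the background. Phlpp1 and Tsc1 were higher in each KO library than in any WT library (7.48% of all genes were). Phlpp2, Pdpk1, Rraga and Rragc were lower in each KO library (8.18% of all genes were). On the authors' FPKM values 4 members did not overlap, since Pdpk1 and Rragc then overlapped. The share of all genes on FPKM is not given, so that count is not read as a result about the members. Of the 13 members that act as brakes, 7 stood above 0 and 6 below, both with KO replicate 1 and without it. Of the 19 that carry the signal, with the regulatory subunit gene Pik3r1 counted among them, 12 stood above 0 and 7 below. Without KO replicate 1 these were 10 and 9. Of the 5 substrates of mTOR complex 1, 3 stood above 0 and 2 below, and 1 and 4 without that library. Of all genes tested, 51.6% stood above 0 with it and 46.4% without it.

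**Figure D1:**
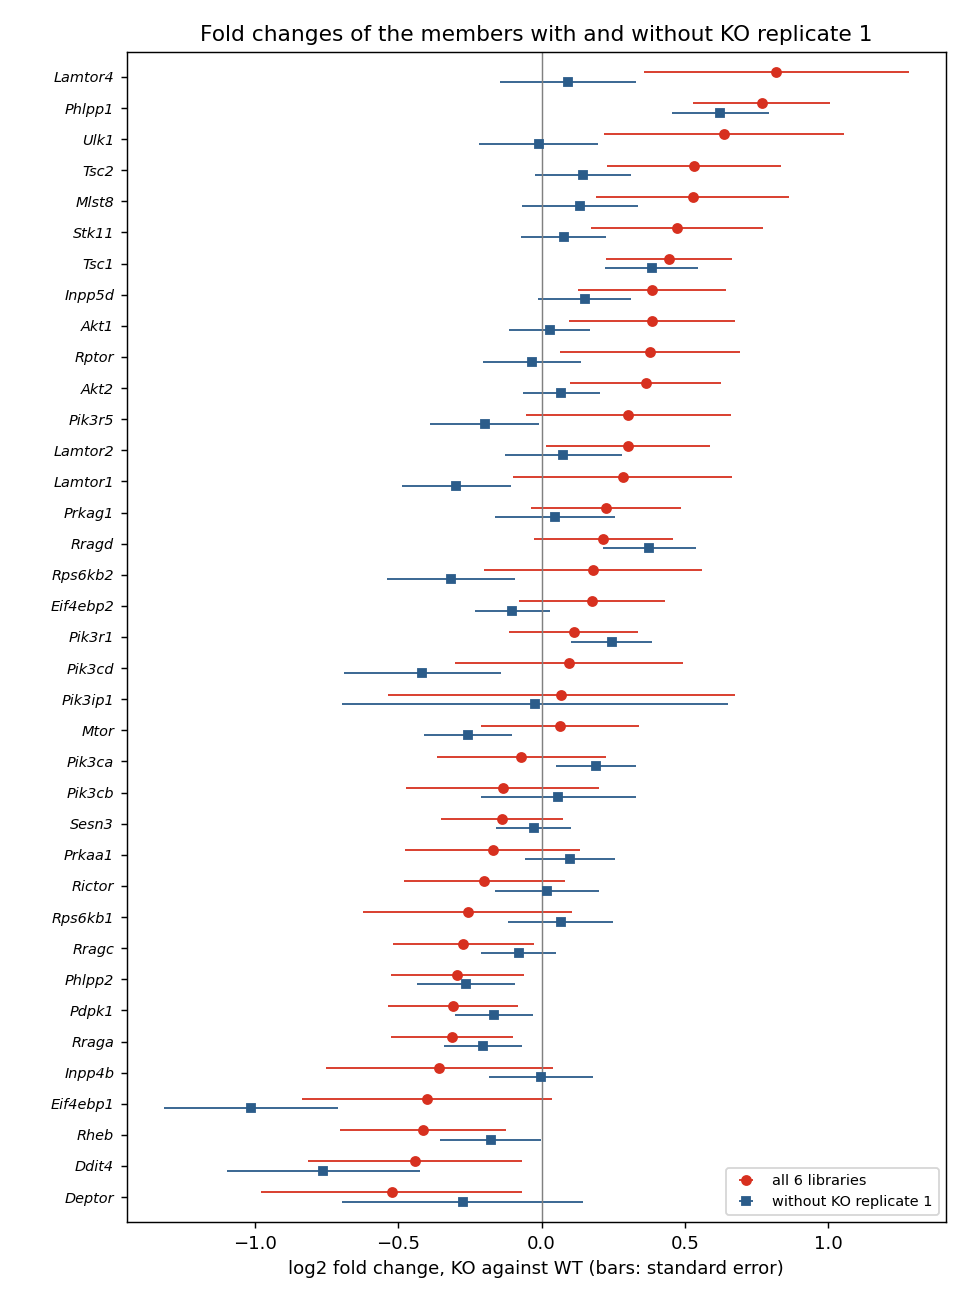
Log2 fold change of each of the 37 members, KO against WT, with its standard error as a bar, from all 6 libraries (circles) and without KO replicate 1 (squares). Phlpp1 goes from +0.77 to +0.62 and Tsc1 from +0.45 to +0.38, while Ulk1 goes from +0.64 to -0.01 and Lamtor4 from +0.82 to +0.09.

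Most of the spread among the members lay in 1 library. KO replicate 1 had the highest value of the 6 libraries for 19 members and the lowest for 15. It was thus at one end for 34 of 37 members (91.9%), against 71.5% of all genes tested. The 3 exceptions were Pik3ip1, Ddit4 and Eif4ebp1, each highest in the library labelled WT replicate 3. Relative to the WT mean, 26 members lay beyond 1.5-fold in KO replicate 1, 16 above and 10 below, over a range of 0.343 to 3.14 times. For the mean of KO replicates 2 and 3, 3 members lay beyond 1.5-fold: Phlpp1 at 1.54 times, Ddit4 at 0.590 times and Eif4ebp1 at 0.497 times the WT mean. The SD of log2 values within a group was larger in KO than in WT for 33 of 37 members, with medians of 0.48 and 0.18. The 1.5-fold counts and these SD were not taken over all genes, so they are not read as a trait of the pathway.

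**Figure D2:**
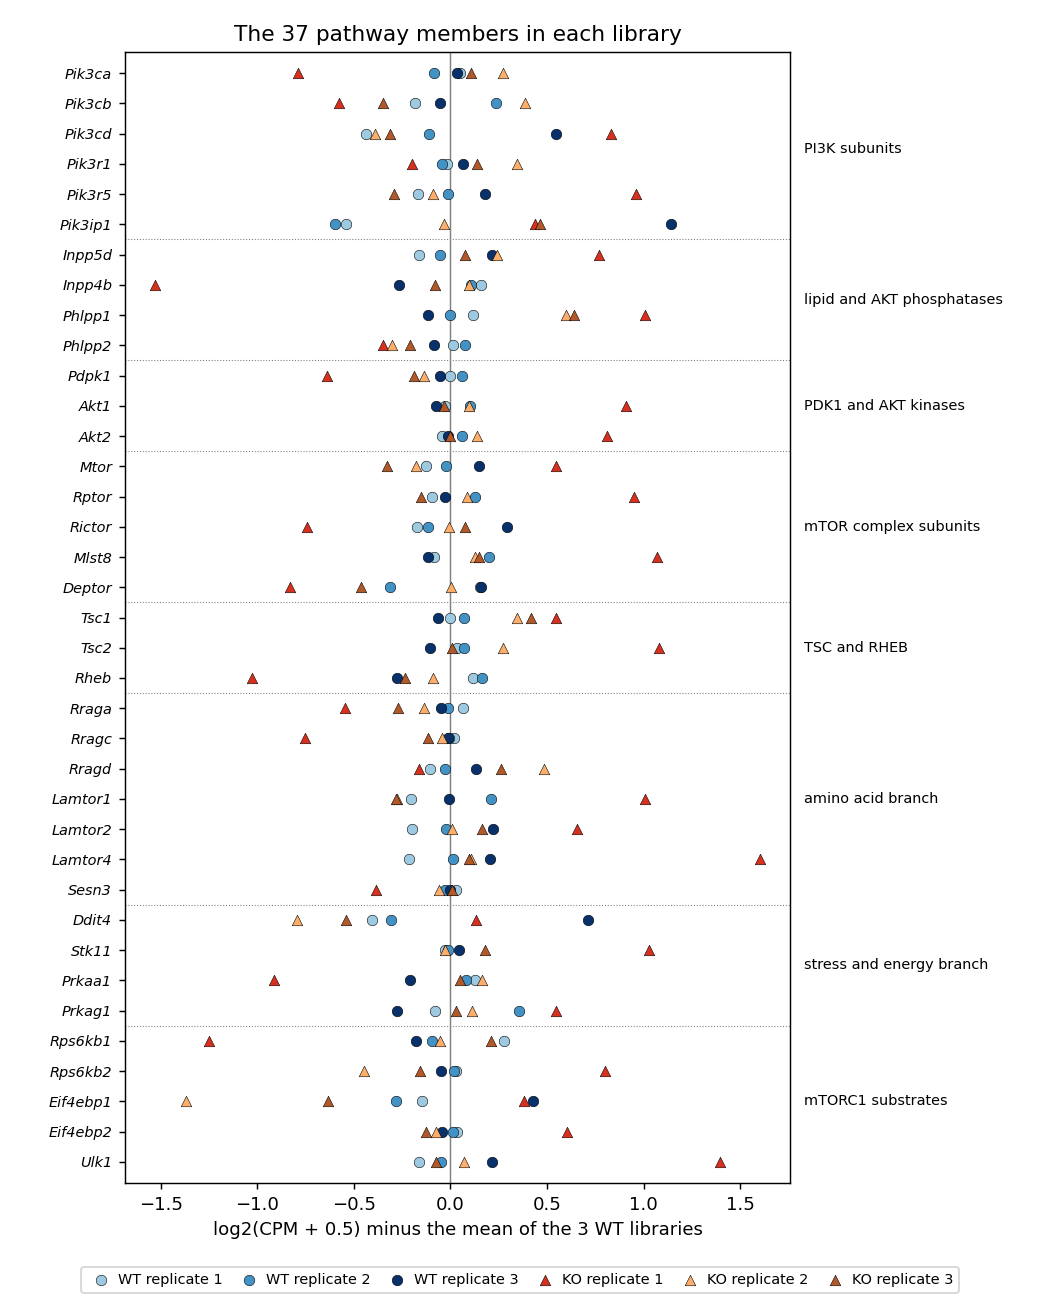
Log2(CPM + 0.5) of each member in each library relative to the mean of the 3 WT libraries, grouped by role, with the inhibitor Pik3ip1 drawn among the PI3K subunits. KO replicate 1 lies at one end for 34 of 37 members, on either side of 0, while KO replicates 2 and 3 have 3 members beyond 1.5-fold in their mean.

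The position of a member in KO replicate 1 went with the base composition of its transcript. Across the 37 members, the deviation of KO replicate 1 from the mean of the other 5 libraries (log2 scale) had Pearson's r = 0.918 and Spearman's rho = 0.853 with the GC content of the longest GENCODE transcript. Over the 11309 tested genes with a transcript, r was 0.824. The other 5 libraries had r from -0.743 to -0.128 over the members by the same measure, in which each is set against a mean that holds KO replicate 1. The points of a library share its preparation and depth, so these values are a description across genes. With the GC content of the coding part alone, r was 0.805. Of the 19 members with a GC content of 52.7% or more, KO replicate 1 was the highest library for 17 and the lowest for 0. Of the 18 with 52.4% or less, it was the lowest for 15 and the highest for 2, Tsc1 and Eif4ebp2.

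Coding stretches of the genes at both ends of the transcript GC order are shown. The 2 members with the lowest transcript GC content were Inpp4b (38.96%) and Rps6kb1 (39.2%), and the 2 with the highest were Stk11 and Akt1 (both 59.7%). The lines give 120 bases from the middle of each coding sequence, 5′ to 3′, from the GENCODE M21 transcripts, with G and C in capitals. G or C made up 60 and 54 of the 120 bases in Inpp4b and Rps6kb1, and 72 and 73 in Stk11 and Akt1. By coding GC content the ends of the order are other genes, Rheb (40.5%) and Ddit4 (62.9%), with Inpp4b at 46.001%.
Inpp4b: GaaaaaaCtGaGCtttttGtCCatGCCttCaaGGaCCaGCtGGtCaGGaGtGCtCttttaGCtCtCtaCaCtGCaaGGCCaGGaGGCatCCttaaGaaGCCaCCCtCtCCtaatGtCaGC
Rps6kb1: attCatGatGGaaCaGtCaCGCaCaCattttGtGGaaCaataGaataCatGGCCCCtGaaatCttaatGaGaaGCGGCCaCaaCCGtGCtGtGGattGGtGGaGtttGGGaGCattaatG
Stk11: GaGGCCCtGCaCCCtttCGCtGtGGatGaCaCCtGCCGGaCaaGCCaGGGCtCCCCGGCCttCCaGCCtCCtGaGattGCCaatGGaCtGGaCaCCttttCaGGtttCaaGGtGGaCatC
Akt1: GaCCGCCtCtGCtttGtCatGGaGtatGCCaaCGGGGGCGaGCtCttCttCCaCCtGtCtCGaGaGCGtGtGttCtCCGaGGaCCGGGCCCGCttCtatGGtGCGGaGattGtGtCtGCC
In KO replicate 1 Inpp4b was at 0.343 times and Rps6kb1 at 0.414 times the WT mean, while Stk11 was at 2.04 times and Akt1 at 1.87 times. In the mean of KO replicates 2 and 3, Inpp4b, Rps6kb1, Stk11 and Akt1 were at 0.9996, 1.05, 1.06 and 1.021 times the WT mean.

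**Figure D3:**
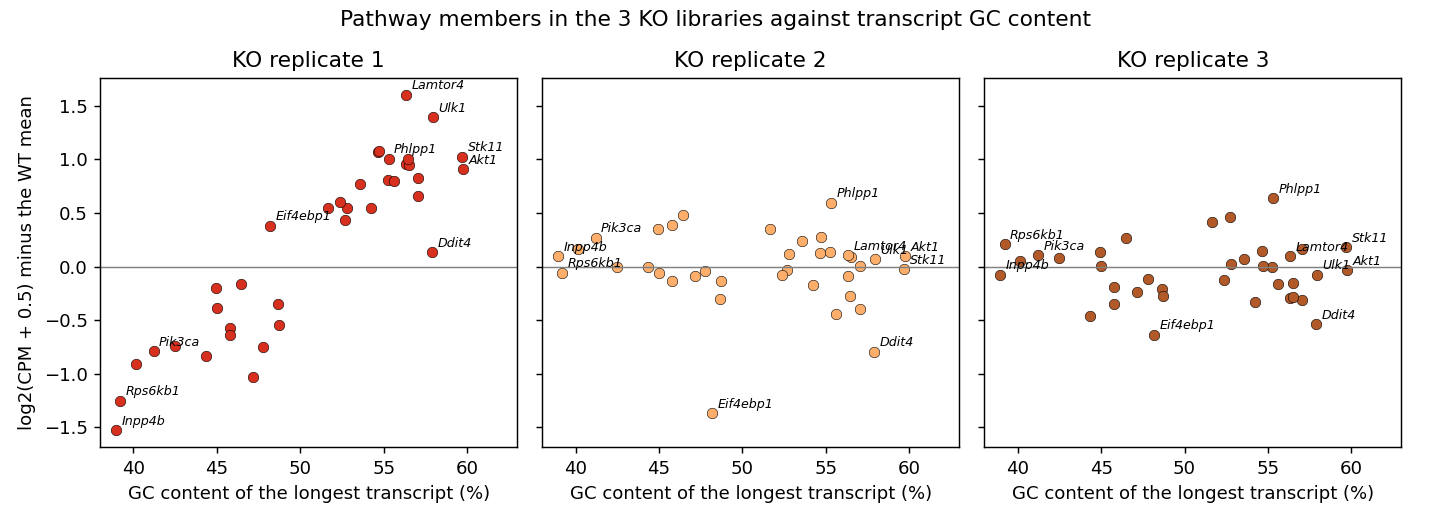
Log2(CPM + 0.5) relative to the WT mean in each KO library against the GC content of the longest transcript of each of the 37 members. The points rise with GC content in KO replicate 1 (r = 0.910) and show no such rise in the other KO libraries (r = -0.12 and -0.01).

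Once KO replicate 1 was left out, 14 of the 37 log2 fold changes changed sign and 28 became smaller in size. The split moved from 22 above and 15 below 0 to 18 above and 19 below (all genes tested: 51.6% above 0 with that library and 46.4% without it). The median over the members moved from +0.11 to -0.00. With edgeR 0 members were then called, against 0.025% of all genes. At an unadjusted p under 0.05 there were 4 of 37, against 10.4% of all genes. Phlpp1, Tsc1 and Rragd were higher in KO (5.17% of all genes were) and Eif4ebp1 lower (5.25%). The groups then did not overlap for 15 members (40.5%), 5 higher and 10 lower in KO, against 29.8% of all genes (13.4% higher and 16.4% lower). With transcript GC content and length fitted in each library, an alternative added after the data were seen, edgeR called 0 members, and 2, Phlpp1 and Ddit4, had an unadjusted p under 0.05, against 12.4% of all genes.

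The PI3K subunits, counted with the PI3K inhibitor Pik3ip1, had 4 of 6 fold changes above 0, and 3 of 6 without KO replicate 1. Pik3cd, the leukocyte form of the catalytic subunit, had levels of 26.9, 35.99 and 58.6 FPKM in WT and 79.3, 28.8 and 30.04 FPKM in KO (FPKM are scaled for transcript length to compare genes, but still hold the differences of KO replicate 1). The groups overlapped, with the library labelled WT replicate 3 and KO replicate 1 above the other 4. Its log2 fold change was +0.10 (SE 0.40) with KO replicate 1 and -0.42 without it. The broadly used catalytic subunits were lower than Pik3cd per length, with Pik3ca at 12.7 ± 0.735 FPKM and Pik3cb at 2.82 ± 0.440 FPKM in WT (mean ± SD, n = 3).

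For Pik3r1, the regulatory subunit that holds the catalytic subunits inactive until a receptor is engaged, the WT libraries gave 136, 134 and 144 CPM and the KO libraries 120.3, 176 and 152 CPM. KO replicate 1 was the lowest of the 6 and KO replicates 2 and 3 the highest. Pik3r5, a regulatory subunit of the gamma form of PI3K, reached 51.99 CPM in KO replicate 1 and lay at 21.5 to 30.1 CPM in the other 5 libraries. Pik3ip1, a membrane protein that inhibits PI3K, was the lowest of this group per length, with levels of 0.496, 0.473 and 2.08 FPKM in WT and 1.36, 0.776 and 1.19 FPKM in KO. The library labelled WT replicate 3 thus lay above each KO library and the other WT libraries below each of them. The log2 fold change of +0.07 stood at +1.08 without WT replicate 3.

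**Figure D4:**
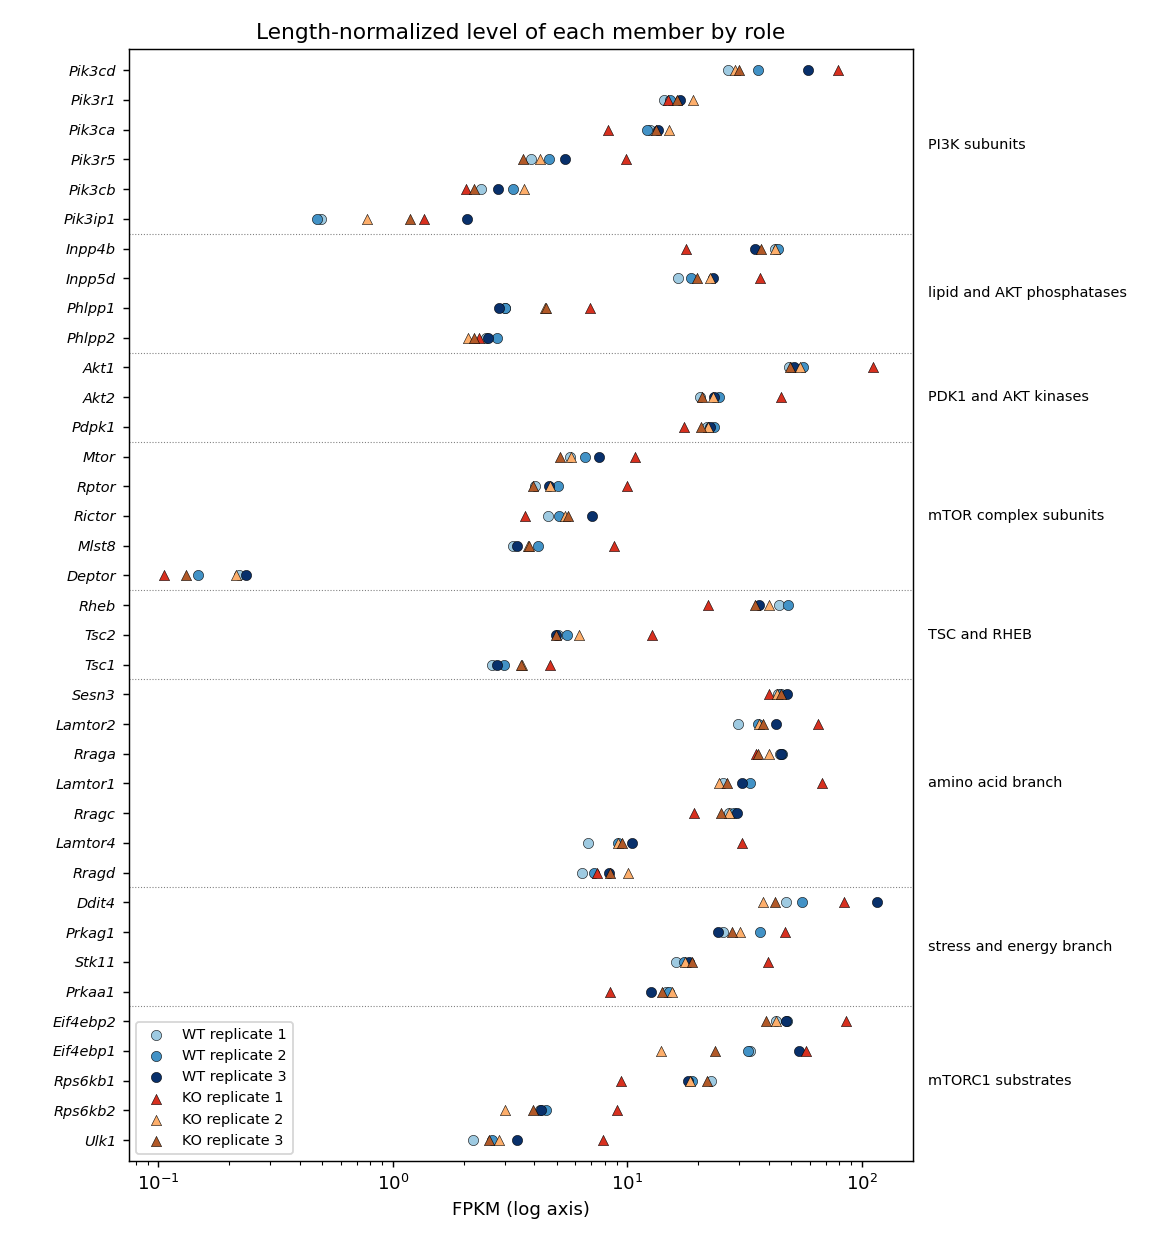
FPKM of each member in each library on a log axis, ordered by role and then by level. Deptor (0.106 to 0.237 FPKM) lies lowest, and the highest values are those of Ddit4 in the library labelled WT replicate 3 (116 FPKM) and of Akt1 in KO replicate 1 (111 FPKM).

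Among the phosphatases, Phlpp1 and its close relative Phlpp2, which also acts on AKT, lay on opposite sides. For Phlpp2 the WT libraries gave 27.6, 28.9 and 25.7 CPM and the KO libraries 21.4, 22.1 and 23.6 CPM, without overlap but with a log2 fold change of -0.29 (SE 0.23) and an edgeR adjusted p of 0.755. The value of Phlpp1 was +0.62 (SE 0.17, edgeR adjusted p = 0.304) without KO replicate 1 and +0.49 with GC content and length fitted. DESeq2 gave Phlpp1 an adjusted p of 0.198.

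The other phosphatases act on lipids made by PI3K. For Inpp5d, which encodes SHIP1 of blood cells, the WT libraries gave 112, 121 and 146 CPM and the KO libraries 215, 149 and 132 CPM, with overlap. Inpp4b, which clears a later lipid of the same chain, had the highest CPM of the 37 members in each WT library. For it the WT libraries gave 499, 482 and 372 CPM and the KO libraries 155, 478 and 424 CPM, so that KO replicate 1 alone lay outside the WT range. Its log2 fold change of -0.36 (SE 0.40) became -0.00 without that library.

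Of the kinases that receive the signal, Akt1 was the most abundant per length, at 52.1 ± 3.65 FPKM in WT against 22.7 ± 2.12 FPKM for Akt2. For Akt1 the WT libraries gave 171, 188 and 166 CPM and the KO libraries 328, 186 and 170.4 CPM. KO replicates 2 and 3 thus lay inside the WT range. Akt2 had 157 CPM in KO replicate 1 against 86.5 to 98.2 CPM in the other 5 libraries, though 10.1% of its 75-base stretches are also found in the pseudogene Akt2-ps. For Pdpk1, which encodes PDK1, the kinase that phosphorylates AKT, the WT libraries gave 187, 195 and 180.02 CPM and the KO libraries 119.97, 169.98 and 164 CPM. These CPM did not overlap between the groups, while the FPKM did, with 22.1 FPKM in KO replicate 2 against 21.8 FPKM in WT replicate 1. Pdpk1 had a log2 fold change of -0.31 (SE 0.23) and an edgeR adjusted p of 0.754.

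The mTOR complex subunits had 3 of 5 fold changes above 0, and 2 of 5 without KO replicate 1. For Mtor, the kinase of both complexes, the WT libraries gave 70.2, 75.4 and 84.9 CPM and the KO libraries 112, 67.7 and 60.9 CPM. KO replicates 2 and 3 were below each WT library and KO replicate 1 above each of them. Its log2 fold change of +0.06 (SE 0.28) was -0.26 without KO replicate 1. Rptor and Rictor, the scaffolds that define mTOR complexes 1 and 2, lay at opposite ends in KO replicate 1. Rptor had 83.7 CPM there against 38.7 to 47.04 CPM in the other 5 libraries, and Rictor 41.1 CPM against 61.2 to 84.8 CPM. Their transcripts have GC contents of 56.5% and 42.5%. Mlst8, a subunit of both complexes, had 33.4 CPM in KO replicate 1 and 14.4 to 18.1 CPM elsewhere, and 16.8% of its 75-base stretches lie antisense to Bricd5. For Deptor, an inhibitor of both complexes, the WT libraries gave 2.57, 1.72 and 2.58 CPM and the KO libraries 1.05, 2.26 and 1.503 CPM. Its groups overlapped, at 15 to 72 counts per library, with a log2 fold change of -0.52 (SE 0.45).

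TSC, the inhibitor of RHEB, is built from the products of Tsc1 and Tsc2. For Tsc1 the WT libraries gave 28.9, 30.4 and 27.6 CPM and the KO libraries 42.6, 36.95 and 38.8 CPM, with no overlap between the groups. Its log2 fold change was +0.45 (SE 0.22), edgeR adjusted p = 0.682, and +0.38 without KO replicate 1. Tsc2 had 92.7 CPM in KO replicate 1 and 40.4 to 52.8 CPM in the other 5 libraries. Part of Tsc2 (9.997% of its 75-base stretches) lies antisense to Pkd1, and without a stated strand setting of the counting their reads cannot be told apart. For Rheb, the GTPase that TSC inhibits, the WT libraries gave 86.2, 89.1 and 65.6 CPM and the KO libraries 38.8, 74.7 and 67.5 CPM, with the library labelled WT replicate 3 below KO replicates 2 and 3. Its log2 fold change was -0.41 (SE 0.29) with KO replicate 1 and -0.18 without it.

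The amino acid branch had 4 of 7 fold changes above 0. The RAG GTPases work in pairs, RAGA with RAGC or RAGD. For Rraga the WT libraries gave 90.2, 85.7 and 83.3 CPM and the KO libraries 58.9, 78.6 and 71.4 CPM, a log2 fold change of -0.31 (SE 0.21) with an edgeR adjusted p of 0.745. For Rragc the WT libraries gave 94.5, 92.9 and 92.6 CPM and the KO libraries 55.1, 90.6 and 86.1 CPM, a log2 fold change of -0.27 (SE 0.25) with an edgeR adjusted p of 0.775. Neither gene's groups overlapped in CPM, but Rragc did in FPKM (27.09 in KO replicate 2 against 27.06 in WT replicate 1), and the mean of KO replicates 2 and 3 was 0.868 and 0.946 times the WT mean for Rraga and Rragc. For Rragd the WT libraries gave 44.7, 47.2 and 52.9 CPM and the KO libraries 42.99, 67.5 and 57.9 CPM, so that KO replicate 1 was the lowest of the 6 and KO replicates 2 and 3 the highest.

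Lamtor1, Lamtor2 and Lamtor4 encode subunits of Ragulator, which tethers the RAG GTPases to the lysosome, and these 3 stood highest in KO replicate 1. The other Ragulator genes, Lamtor3 and Lamtor5, which are not among the 37, had 28.6 and 34.3 CPM there, inside the range of the other 5 libraries (25.96 to 38.6 and 30.7 to 39.9 CPM). Lamtor4 had the largest fold change of the 37 members with all libraries, +0.82 (SE 0.46). For it the WT libraries gave 7.09, 8.39 and 9.64 CPM and the KO libraries 26.3, 8.97 and 8.92 CPM, so that KO replicates 2 and 3 lay inside the WT range. Lamtor1 had 62.1 CPM in KO replicate 1 and 25.1 to 35.5 CPM in the other 5 libraries, and Lamtor2 30.3 CPM against 16.5 to 22.3 CPM. Sesn3, a stress-induced brake on this branch, had the branch's highest mean over the 6 libraries, 44.3 FPKM, close to Lamtor2 (41.4 FPKM) and Rraga (41.2 FPKM). In the KO mean Lamtor2 was higher (46.5 against 43.0 FPKM). For Sesn3 the WT libraries gave 127, 123 and 125 CPM and the KO libraries 95.6, 119.8 and 126 CPM. KO replicate 1 was the lowest and KO replicate 3 lay inside the WT range.

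Of the stress and energy branch, Ddit4, a stress-induced activator of TSC, was the most abundant per length, at 72.9 ± 37.4 FPKM in WT. For it the WT libraries gave 105, 112 and 229 CPM and the KO libraries 153, 80.01 and 95.6 CPM. The library labelled WT replicate 3 was the highest, and KO replicates 2 and 3 lay below each WT library. The log2 fold change was -0.44 (SE 0.37), -0.76 without KO replicate 1 and -0.01 without WT replicate 3. Stk11, which encodes the kinase LKB1 that activates AMPK, had 117 CPM in KO replicate 1 and 56.04 to 64.8 CPM in the other 5 libraries. The AMPK subunit genes split in that library. For Prkaa1 (catalytic) the WT libraries gave 93.8, 90.7 and 74.1 CPM and the KO libraries 45.3, 96.002 and 88.7 CPM, with KO replicate 1 the lowest. Prkag1 (the nucleotide-sensing gamma subunit) had 84.3 CPM in KO replicate 1 against 47.4 to 73.9 CPM elsewhere, and 20.6% of its 75-base stretches lie antisense to B130046B21Rik.

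Among the substrates of mTOR complex 1, Eif4ebp1 was furthest from the WT mean in KO replicates 2 and 3. Its product represses cap-dependent translation until mTOR phosphorylates it. For it the WT libraries gave 37.3, 33.9 and 55.8 CPM and the KO libraries 54.001, 15.7 and 26.5 CPM. KO replicates 2 and 3 lay below each WT library, while KO replicate 1 lay between WT replicate 1 and the library labelled WT replicate 3. The log2 fold change was -0.40 (SE 0.44, edgeR adjusted p = 0.807) with all libraries and -1.01 (SE 0.30, edgeR adjusted p = 0.347) without KO replicate 1. Without KO replicate 2 it was -0.07, and without WT replicate 3 it was -0.17. For Eif4ebp2, of the same function, the WT libraries gave 111, 109 and 105 CPM and the KO libraries 165, 103 and 99.4 CPM, with KO replicate 1 the highest.

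The S6 kinase genes, whose products drive translation, were at clearly unequal levels in each library but KO replicate 1. Per length, Rps6kb1 was at 19.8 ± 2.46 FPKM in WT and Rps6kb2 at 4.34 ± 0.142 FPKM. In KO replicate 1 Rps6kb1 and Rps6kb2 were at 9.42 and 9.03 FPKM. KO replicates 2 and 3 had 18.4 and 21.8 FPKM of Rps6kb1 and 2.99 and 3.95 FPKM of Rps6kb2. For Rps6kb1 the WT libraries gave 178, 138 and 129.8 CPM and the KO libraries 61.5, 141 and 170.1 CPM, with KO replicates 2 and 3 inside the WT range. Rps6kb2 had 18.4 CPM in KO replicate 1 and 7.47 to 10.6 CPM elsewhere, and 22.3% of its 75-base stretches lie antisense to Ptprcap. For Ulk1, the autophagy kinase that mTOR complex 1 holds inactive, the WT libraries gave 15.04, 16.3 and 19.7 CPM and the KO libraries 45.4, 17.8 and 16.03 CPM. KO replicate 1 stood alone above the other 5 libraries, and the log2 fold change of +0.64 (SE 0.42) was -0.01 without it.

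**Figure D5:**
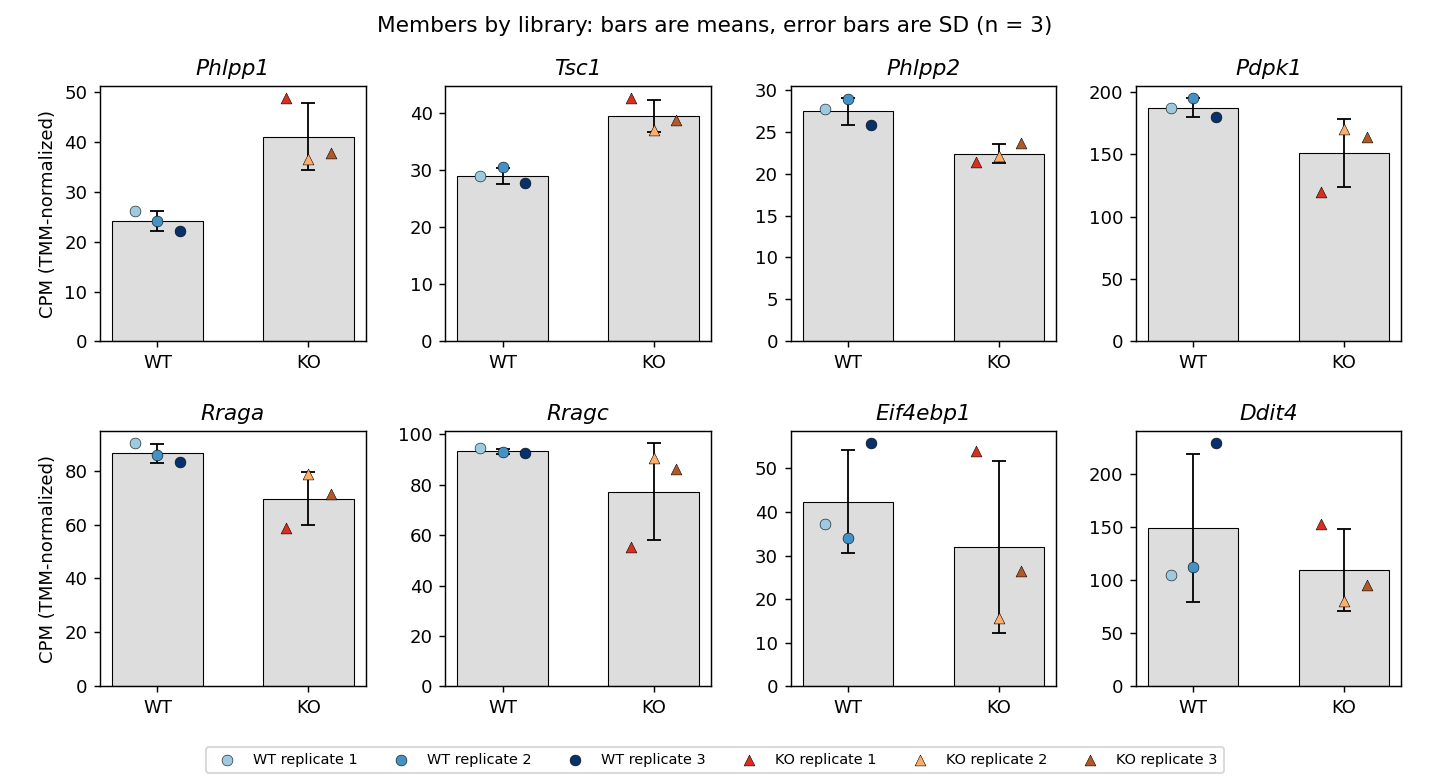
CPM by library for the 6 members whose groups did not overlap and for Eif4ebp1 and Ddit4, with the group mean as a bar and the SD as an error bar (n = 3). Phlpp1 and Tsc1 lie higher in each KO library, Phlpp2, Pdpk1, Rraga and Rragc lie lower in each, and in Eif4ebp1 and Ddit4 the library labelled WT replicate 3 is the highest and KO replicate 1 the next.

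Other genes of the pathway, 63 tested genes outside the 37, gave 0 calls in either direction with edgeR (0.017% of all genes were called). Fold changes were above 0 for 33 and below 0 for 30 (51.6% of all genes were above 0), with a median of +0.01. Prr5l, which encodes a partner of mTOR complex 2, was the 1 gene with an unadjusted p under 0.05, against 7.51% of all genes. It had 2.89 to 3.65 CPM in WT and 5.13 to 5.91 CPM in KO, a log2 fold change of +0.79 (SE 0.33) with an edgeR adjusted p of 0.651. The next 5 by p were Sesn2 (+0.90), Ulk2 (-0.60), the AMPK subunit gene Prkab1 (+0.50), Prr5 (+0.92) and Pik3ap1 (-0.93), an adaptor of PI3K, with edgeR adjusted p from 0.663 to 0.708. Sesn2 had 94.2 CPM in KO replicate 1 against 26.9 to 38.5 CPM in the other 5 libraries. Prr5 had 7.86 CPM there against 2.195 to 2.71 CPM. Pik3ap1 had 38.8 CPM in the library labelled WT replicate 3 and 9.58 to 13.6 CPM in the other 5. Without KO replicate 1, Sesn2 was at +0.23, Prr5 at +0.18, Ulk2 at -0.50 and Prkab1 at +0.28. KO replicate 1 was the highest library for 24 of the 63 and the lowest for 21. Together these are near the 71.5% of all genes tested for which it lay at one end. Its deviation had r = 0.875 with transcript GC content across the 63, against 0.824 over all tested genes with a transcript.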

How the data were processed

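RNA of 6 libraries of stimulated natural Treg cells, 3 WT and 3 KO by their titles, was compared. The labels' design text names stranded mRNA libraries, single-end reads of 75 bases and the VIPER pipeline. The aligner was STAR 2.4.2a, per the file headers, and the build mm9, per the submitters' processing notes. How and with which strand setting and annotation reads were counted is not given in the sources used here. The authors deposited raw whole-number counts for each gene symbol. They also deposited FPKM values, scaled for length and depth, and an alignment report of other statistics, such as percent of reads mapped. Dates replace the symbol in 26 entries (0.271% of counts), which stayed in library sizes.

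Differences were tested on counts in R 4.3.3 with edgeR 4.0.16 (TMM, filterByExpr with a minimum count of 10, quasi-likelihood test, Benjamini-Hochberg over 11772 genes, threshold 0.05), and all 37 members passed the filter. Alternatives used DESeq2 1.42.0 and limma 3.58.1, FPKM with a pseudocount of 1 or 0.1, other scalings and filters, the replicate block and libraries left out. The fit was tested on simulated data in which no library deviated with GC content, so that test does not bear on KO replicate 1. Standard errors come from the F statistic. GC content, sequences and shared 75-base stretches come from GENCODE M21 transcripts, matched for 37 of 37 members. That release is of another build, so no coordinates are given. A total of 3 counts equals 0.109 to 0.295 CPM. The members and lists were chosen with earlier results of these data known. Values of each library are given for members with an unadjusted p under 0.05, for those whose groups did not overlap, for the highest and lowest FPKM of each role and for Rps6kb1. Of other pathway genes, the 6 with the smallest p are named. Further values of single libraries were chosen after they were seen.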

Additional observations from a re-analysis of the deposited data

How the results depend on the processing

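Members called stayed at 0 under each alternative run, and the Phlpp1 log2 fold change ran from 0.49 to 0.84. Over all genes, edgeR called 2, against 122 with DESeq2, 1 with limma-voom, 6 with no filter on low counts, 0 with limma on log2(FPKM + 1) without a filter, 80 with 2 against 2 libraries (KO replicate 1 and WT replicate 3 left out) and 16 with the GC content and length offset, which was chosen after seeing the data. With 1 library left out, 0 to 3 genes were called, 1 to 4 members had an unadjusted p under 0.05 and the groups of 6 to 15 members did not overlap, against 1 and 6 with all libraries (fewer libraries overlap less often). Members with an unadjusted p under 0.05 numbered 2 with limma on log2(FPKM + 1) without a filter and 5 with 2 against 2 libraries. They numbered 2 with the GC content and length offset (12.4% of all genes) and 3 with that offset without KO replicate 1. With 2 against 2 libraries the groups of 22 members did not overlap, and with the offset without KO replicate 1 those of 15. With library size only those of 5 did not overlap, and with each limma setting on FPKM those of 4. Apart from the 12.4%, the shares of all genes in these settings are not given, so these counts are not read as a result about the members.

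Log2 fold changes of members that changed sign, none of them called, are given with their values, and the cause was not tested. With 2 against 2 libraries they were Pik3ca 0.23, Pik3cb 0.049, Pik3cd -0.0695, Pik3r5 -0.0796, Mtor -0.16, Rptor -0.026, Rictor 0.20, Lamtor1 -0.29, Prkaa1 0.023, Prkag1 -0.065, Rps6kb1 0.00085, Rps6kb2 -0.32, Eif4ebp2 -0.10. With the GC content and length offset they were Pik3ca 0.14, Pik3cd -0.29, Pik3r5 -0.068, Pik3ip1 -0.034, Mtor -0.25, Rptor -0.021, Lamtor1 -0.063, Prkaa1 0.17, Rps6kb1 0.0696, Rps6kb2 -0.17, Eif4ebp2 -0.0041. With that offset and without KO replicate 1 they were Pik3ca 0.048, Pik3cd -0.34, Pik3r5 -0.15, Mtor -0.32, Rptor -0.037, Lamtor1 -0.18, Prkaa1 0.041, Rps6kb2 -0.29, Eif4ebp2 -0.15. With 1 library left out, the ranges of members that changed sign at least once were Eif4ebp2 -0.10 to 0.28, Lamtor1 -0.30 to 0.50, Mtor -0.26 to 0.20, Pik3ca -0.28 to 0.19, Pik3cb -0.49 to 0.058, Pik3cd -0.42 to 0.40, Pik3ip1 -0.27 to 1.08, Pik3r1 -0.025 to 0.25, Pik3r5 -0.20 to 0.50, Prkaa1 -0.37 to 0.099, Rictor -0.36 to 0.019, Rps6kb1 -0.56 to 0.067, Rps6kb2 -0.32 to 0.42, Rptor -0.032 to 0.55, Ulk1 -0.011 to 0.86. The replicate numbers do not pair animals by the labels, and same-numbered libraries had deviations correlated at r = -0.361, 0.145 and 0.138. With the replicate number as a block edgeR called 1 gene and 0 members. Deptor and Pik3ip1 had the lowest counts, 15 to 73 in the KO libraries, which limits their precision.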
